A study of Pimephales promelas with 20 samples.

Results

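The subject is a set of 100 array probes whose median signal in fathead minnow liver stepped down at each rise in phenanthrene. Of 15208 probes for fish sequences, 10867 were eligible, which required a signal marked as well above background by the scanner software on 4 or more arrays within 1 dose group. Among them, 132 had, in the authors' deposited log2 values, a group median that was lower by at least 0.2 log2 units at 29 than at 0 ng/L, again at 287 than at 29 ng/L, and again at 1006 than at 287 ng/L. The 100 with the lowest median at 1006 ng/L relative to control are the members. The members were thus chosen by these group medians, so the sizes and directions of the steps are descriptions and not findings. The mirrored rule, with every step upward by as much, was met by 315 eligible probes, or 2.90%, against 1.21% for the falling rule.

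The livers came from female Pimephales promelas, a small freshwater minnow used in aquatic toxicology, after 48 h. Control fish received no agent at 0 ng/L, and the others received phenanthrene at 29, 287 or 1006 ng/L, with 5 one-colour arrays per dose and 20 in all. No genotype, strain or age is given in the labels, and whether each array holds 1 fish is not stated, so spreads and p-values measure only the differences between these arrays. In whole liver, fewer cells of a type and less RNA per cell cannot be told apart. Between 8722 and 12797 probes per array were well above background.

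Phenanthrene is a polycyclic aromatic hydrocarbon of crude oil and combustion residues. Fish take such compounds up through the gills and oxidise and conjugate them in the liver, the organ that in females also makes egg yolk precursors, plasma proteins and lipoproteins. A lower signal of a probe at higher doses can reflect less of one transcript relative to the rest of the liver RNA. It can also come from the array itself, such as the dim parts described below. Which transcripts the probes report cannot be said here, because 0 of the 15208 probe identifiers matched the gene table used (RefSeq, assembly fPimPro1.hap1.1). The planned lists of liver pathways and cell type markers could therefore not be applied, and the labelled tissue was not checked against its markers. No probe sequence was used, and members are given by their array identifiers.

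Parts of some arrays were dim, and members lay in them. On 287 ng/L replicate 36 the eligible probes in 11 of 96 blocks of spot positions lay on average more than 0.50 log2 units under the median array, and on 1006 ng/L replicate 42 this was so in 8 blocks. Those regions held 24 of the 100 members and 11.9% of all eligible probes. Inside them 2.33% of eligible probes met the falling rule and 1.32% the rising one, against 1.06% and 3.11% elsewhere. Of the 22 members in the dim blocks of replicate 36, 15 had their lowest value at 287 ng/L on that array, and the median of their differences from the other arrays of the dose was -1.80 log2 units. Of the 17 in the dim blocks of replicate 42, 10 had their lowest value at 1006 ng/L on it, and the median of their differences was -0.69. Of the 76 members in neither region, 15 were lowest at 287 ng/L on replicate 36 and 8 at 1006 ng/L on replicate 42. On 1006 ng/L replicate 45 there was 1 dim block, with 2 members. The authors' table held values for all 100 members on all 20 arrays. Without both replicate 36 and replicate 42 the rule was met by 65 of the 100, 13 of the 24 in the dim regions and 52 of the 76 outside them. Among probes eligible without those arrays, 1.73% in the dim regions and 1.37% elsewhere then met the falling rule. The median step from 29 to 287 ng/L was then -0.38 and that from 287 to 1006 ng/L -0.69. What part the dim regions have in the choice of the other members was not tested.

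Over the 100 members the median step was -0.45 log2 units from 0 to 29 ng/L, -0.41 from 29 to 287 ng/L and -0.63 from 287 to 1006 ng/L. The last step was the largest of the 3 in 52 members, the first in 31 and the middle one in 17. In 10 members all 3 steps were within 1.5 times of each other. From control to 1006 ng/L the difference of medians ran from -1.13 to -4.87 with a median of -1.64, which is a signal 3.12-fold lower, and 32 members differed by at least 2 log2 units. The choice of the 100 fixes the lower bound of these sizes. At its edge UF_Ppr_AF_101144, rank 100, had -1.13386 and UF_Ppr_AF_110194, the first probe outside, -1.13067.

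The members' control medians ran from 4.0 to 16.24 log2 units with a median of 7.65, against a range of 1.36 to 18.75 and a median of 7.0 over all eligible probes. There were 33 under 6, 48 from 6 to 10 and 19 above. In controls 77 members were well above background on all 5 arrays, beside 70.1% of eligible probes. At 1006 ng/L this held for 56 members and 75.3% of eligible probes. A further 43 were well above background on some but not all arrays at that dose. The 1 member well above background on no array at that dose was UF_Ppr_AF_118809. It had a control mean of 4.31 ± 1.17 (SD, n = 5) and a mean of 2.04 ± 0.90 at 1006 ng/L. With its 1006 ng/L values raised to no less than each array's lowest well-above-background value, the signal was 2.23-fold lower. This is an estimate, as only 3 of its 5 control arrays were well above background. All 20 arrays were well above background for 51 members, or 51%, beside 61.1% of eligible probes. The choice of falling medians, with a filter that any 1 dose group could meet, favours more detection in controls than at 1006 ng/L. Nothing is read from these detection counts.

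In most members each single step was smaller than the spread between arrays of the same dose. The whole difference from 0 to 1006 ng/L was larger than that spread in most. The members were taken by the size of that difference, which was -1.13 log2 units or lower in each. A whole difference above the spread was thus favoured by the choice of members, and nothing is read from it. The pooled SD between arrays of the same dose had a median of 1.02 log2 units over the members, beside 0.73 over all eligible probes, and ran from 0.44 to 3.62. In 69 members every single step was smaller than this SD. The whole difference from 0 to 1006 ng/L was larger than 2 SD in 31 members and smaller than 1 SD in 4. Of the 25 possible pairs of a control with a 1006 ng/L array, the exposed array was the lower one in 22 for the median member, and in 13 to 25 over all members. For the single steps the median member had 16 of 25 pairs in falling order from 0 to 29 ng/L, 16 from 29 to 287 ng/L and 17 from 287 to 1006 ng/L. Over all eligible probes these medians were 12, 12 and 13, and the median for 1006 ng/L against control was 13. The rule used the same values and groups and favours falling order, so nothing is read from the members' counts.

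Complete separation of dose groups was counted in the members beside its share over all eligible probes. The 5 arrays at 1006 ng/L all lay below the 5 controls in 15 members, where 1.22% of eligible probes did so, and in 19 members in the reprocessed scanner values (1.53% of eligible probes). The rule used this contrast, so nothing is read from these shares. Complete separation from the controls was found for the 287 ng/L arrays in 5 members (0.396% of eligible probes) and for the 29 ng/L arrays in 0 (0.386%). Between neighbouring doses 0 members separated from 29 to 287 ng/L (0.175%) and 0 from 287 to 1006 ng/L (0.571%). The top dose separated downward from 29 ng/L in 0 members (0.515%) and from all 15 other arrays at once in 0 (0.0276%). The counts of 0 lie near these small shares, and nothing is read from them.

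A linear model across all eligible probes was fitted for each contrast. With limma on the scanner values and Benjamini-Hochberg adjustment over 10867 probes, 1 member passed at 1006 ng/L against control, with 0.202% of tested probes called in either direction there and 0.0184% called lower. The same 1 member passed in the trend over dose rank, where 0.285% were called in either direction and 0.046% downward, and at an unadjusted p under 0.05 the trend was downward in 70 members (7.21% of tested probes). At an unadjusted p under 0.05, 65 members were lower at 1006 ng/L (6.66% of tested probes), 24 at 287 ng/L (2.70%) and 3 at 29 ng/L (2.71%). These contrasts share the same controls. Between neighbouring doses 0 members were called, as were 0% of tested probes in either direction, and at an unadjusted p under 0.05 the counts were 3 from 0 to 29 ng/L, 1 from 29 to 287 ng/L (2.64%) and 3 from 287 to 1006 ng/L (2.64%). Their lowest adjusted p was 0.881, 0.994 and 0.885 in that order. Without moderated variances, the linear model also called 0 members between neighbouring doses. All these contrasts fed the rule, so the counts are given beside their backgrounds and nothing is read from them. The median fitted difference of the members at 1006 ng/L was -1.37, beside -0.03 over all tested probes. With normexp background correction it was -0.84.

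UF_Ppr_AF_101957 was the member that passed. Like all members it was chosen by its falling medians on these same arrays. The values and tests given for it here are thus descriptions and no independent support. Its log2 signal was 9.32, 9.63, 9.41, 9.25 and 9.65 on the control arrays, and 8.57, 9.27, 9.11, 9.11 and 7.67 at 29 ng/L. It was 8.68, 8.07, 7.74, 8.22 and 8.80 at 287 ng/L and 7.95, 8.24, 7.26, 7.53 and 7.96 at 1006 ng/L. Each array of both upper doses lay below every control, while both neighbouring pairs of exposed doses overlapped. At 1006 ng/L it fell by 1.63 log2 units relative to control (SE 0.29, limma adjusted p = 0.0177). Its slope over the dose ranks was -0.54 (limma adjusted p = 0.00981). It was rank 60 by size among the members, and its pooled SD was 0.45, beside 0.44 for the least variable member. It lay in the dim blocks of neither replicate 36 nor replicate 42, and it met the rule without any single one of the 20 arrays. The limma call at 1006 ng/L was lost on omitting any of 6 single arrays (adjusted p 0.0514 to 0.0688), which were control replicates 3, 4 and 7 and top-dose replicates 41, 44 and 46. It was also lost with slide as a fixed term (adjusted p = 0.0555) and with 75th percentile scaling (adjusted p = 0.0522). Within slide 3, with 2 arrays per dose, its mean was lower by 1.75 (difference -1.75) at 1006 ng/L than in controls, and within slide 4 by 1.77 (-1.77).

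The 3 members with the largest differences of medians had pooled SDs of 2.97, 2.09 and 1.73, above the members' median of 1.02. Other large differences were less variable, with 1.03 at rank 5 and 1.07 at rank 7. Ranking by differences of medians favours variable probes, so nothing is read from this. For UF_Ppr_AF_101592, the first by size, the control arrays gave 16.46, 16.28, 12.84, 16.24 and 16.24 log2 units. At 29 ng/L its signal was 8.75, 15.69, 6.99, 13.80 and 14.49, at 287 ng/L 9.14, 15.45, 15.61, 12.61 and 10.76, and at 1006 ng/L 10.49, 14.23, 8.71, 16.74 and 11.37. The highest array of all was at the highest dose and the lowest at 29 ng/L, so all groups overlapped. The medians differed 29.2-fold between 0 and 1006 ng/L, while the fitted difference was -3.37 (SE 1.72) with a limma adjusted p of 0.406.

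UF_Ppr_AF_111292, the second by size, had control values of 4.23, 10.04, 6.54, 7.65 and 8.09 and 29 ng/L values of 5.98, 7.59, 6.92, 8.54 and 7.28. At 287 ng/L it had 3.30, 9.21, 5.30, 6.75 and 6.80, and at 1006 ng/L 3.98, 3.86, 5.70, 9.14 and 1.93. A 1006 ng/L array exceeded 4 of the 5 controls, and 4 of the 5 arrays at that dose were well above background. The difference of medians, -3.66, did not pass (limma adjusted p = 0.410). UF_Ppr_AF_108075 came next, with medians of 7.83, 7.12, 6.55 and 4.38 over the 4 doses. Its controls lay between 6.93 and 10.91 and its 1006 ng/L arrays between 1.86 and 7.70, an overlap of the lower controls with 1 exposed array. It met the rule without any single array, but its fitted difference of -3.48 (SE 1.0) had an adjusted p of 0.166.

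Among the bright members the spread differed widely. UF_Ppr_AF_111978, the brightest by mean level, had 14.68, 15.33, 14.70, 15.36 and 15.32 in controls and 14.91, 14.82, 15.07, 15.49 and 13.78 at 29 ng/L. It had 14.49, 14.29, 14.65, 14.07 and 14.79 at 287 ng/L and 14.50, 14.34, 13.90, 13.51 and 13.83 at 1006 ng/L. The 1006 ng/L arrays lay below all controls, those at 287 ng/L did not, and the pooled SD of 0.44 was the smallest of the set (fitted difference -1.09, limma adjusted p = 0.166).

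UF_Ppr_AF_100048 had 13.77, 14.42, 13.96, 14.47 and 14.25 in controls and 10.85, 13.71, 14.36, 13.79 and 12.26 at 29 ng/L. At 287 ng/L it had 12.95, 12.52, 11.94, 13.00 and 13.23, and at 1006 ng/L 12.09, 13.37, 13.00, 9.98 and 12.08. All 10 arrays at the upper pair of doses lay below all controls, and those doses overlapped each other. The fitted difference was -2.15 (SE 0.62, limma adjusted p = 0.166). The other bright members named by rule were wide: the controls of UF_Ppr_AF_117289 spanned 11.49 to 17.75 and its 1006 ng/L arrays 9.98 to 15.74, and those of UF_Ppr_AF_112224 spanned 11.75 to 14.98 and 10.75 to 13.98.

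The other members with all 287 ng/L arrays below the controls were UF_Ppr_AF_106636, UF_Ppr_AF_106250 and UF_Ppr_AF_110156, singled out after their values were seen. UF_Ppr_AF_106636 had controls from 4.41 to 5.47, 29 ng/L arrays from 1.22 to 6.62, 287 ng/L arrays from 2.37 to 4.0 and 1006 ng/L arrays from 0.88 to 3.36. It was near background, well above it on 1 of 5 arrays at 1006 ng/L, and lay in the dim blocks of both affected arrays. UF_Ppr_AF_106250 had 10.17 to 12.11 in controls and 9.70, 9.05, 7.92, 4.88 and 9.79 at 287 ng/L, where the 4.88 came from replicate 36, whose dim blocks held it. At 1006 ng/L UF_Ppr_AF_106250 lay between 7.50 and 9.47, where the 7.50 came from replicate 42, whose dim blocks also held it. UF_Ppr_AF_110156 was spread out at the top dose. Its 287 ng/L arrays lay between 3.15 and 3.99 under controls of 4.15 to 6.33, but its 1006 ng/L arrays reached 6.41.

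Taken array by array, the members' median distance from the control medians was -0.59, -0.35, -0.30, -0.39 and -1.65 at 29 ng/L. It was -0.81, -1.06, -1.22, -1.18 and -0.79 at 287 ng/L and -1.44, -1.47, -1.74, -1.84 and -1.40 at 1006 ng/L. Of the controls, replicate 6 was at -0.56 and the other 4 between 0 and 0.03, since the control medians are their own reference. All arrays at 1006 ng/L were thus below all at 287 ng/L, as the choice of members favours, but 29 ng/L replicate 26 lay among the 1006 ng/L arrays, and 57 of the 100 members were below all controls on it, as were 29.5% of eligible probes. Without it the 29 ng/L arrays ran from -0.59 to -0.30, close to control replicate 6. Over all eligible probes the same array medians stayed between -0.16 and 0.12. The titles call these values loess normalized, which tends to hold such medians near 0. The lowest of them were 1006 ng/L replicate 44 at -0.16, 29 ng/L replicate 26 at -0.15 and 1006 ng/L replicate 45 at -0.10. Those arrays were also the lowest for the members. Within each exposed dose the array lowest for the members was also the brightest by the 75th percentile of its processed intensity. These were 29 ng/L replicate 26 at 511, 287 ng/L replicate 35 at 534 and 1006 ng/L replicate 45 at 684. Among controls the lowest for the members, replicate 6, was at 323, under replicate 3 at 324. What part an array-wide shift or array brightness has in the members' medians was not tested.

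The order of the doses was seen within single slides for a minority of members. Slides 3 and 4 each held 2 arrays of every dose, and the other slides held 1 or 2 arrays in all. The mean at 1006 ng/L was below that of controls in 97 members on each of them, beside 54.7% and 53.5% of eligible probes. The means went down at every step in 34 members on slide 3 (5.35% of eligible probes) and in 22 on slide 4 (5.48%), and in 5 on both (0.497%). In the scanner values both 1006 ng/L arrays lay below both controls in 68 members on slide 3 (26.7% of eligible probes) and in 64 on slide 4 (20%). The median steps on slide 3 were -0.38, -0.49 and -0.76. On slide 4, which held 29 ng/L replicate 26, they were -0.88, -0.08 and -0.53, and the middle step was downward in 54 of 100 members. When slide entered limma as a fixed term, 0 members passed at 1006 ng/L and 2 in the trend. The share of all tested probes called in that fit was not counted, so nothing is read from these 2 counts. The counts, calls and medians of these slides use the arrays that chose the members. The choice favours lower values at higher doses within each slide, so nothing is read from them.

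Membership changed on the omission of any single array. Leaving out 1 array left between 48 and 90 of the 100 members under the rule. The counts were lowest without an array of the lowest exposed dose, at 57, 48, 54, 48 and 54 without 29 ng/L replicates 22, 23, 24, 25 and 26. They were 63 to 72 without one at 287 ng/L, 65 to 87 without a control and 78 to 90 without one at 1006 ng/L. Under all 20 omissions 7 members met the rule every time, and 41 did so in at least 15. With eligibility judged anew at each omission, the number of eligible probes that passed went from 96 to 179. The filter still asked for 4 arrays within a dose group, also in the group that lost 1. Omitting control replicate 6 gave 3 members called by limma at 1006 ng/L, and omitting replicate 26 of the lowest exposed dose gave 4. In the trend, 2 members were called when control replicate 5 was omitted and 3 when control replicate 6 was. Omitting replicate 35 of the middle dose gave 3, and omitting replicates 22 and 26 of the lowest exposed dose in turn gave 4 and 9. The share of all tested probes called was not counted in these refits, so nothing is read from their counts of members called.

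Some probes share part of their identifier with a member. The array holds 710 probes with the prefix AM, whose identifiers all end in _ms, and the remaining probes carry AF. What the suffix stands for is not given in the sources used here. Of the members 12 were AM probes, beside 2.60% of eligible probes. For 11 members an eligible partner differed in the suffix alone. In 1 pair, which counts from both sides, the partner is itself a member. Of the 9 partners that are not members, 8 had a lower median at 1006 ng/L than in controls, with a median difference of -0.74 over the 9, and 51.3% of all eligible probes had a lower median there. Members were chosen on these same arrays, and partners tended to vary with them within doses, as given below. The choice can thus favour lower partners, and nothing is read from these counts. The pair of members, singled out after its values were seen, was UF_Ppr_AF_110120 and UF_Ppr_AM_119560. The first had control values of 7.54, 10.61, 7.71, 10.43 and 10.13 and 1006 ng/L values of 7.59, 7.45, 7.66, 6.68 and 8.95. The second had 4.92, 5.83, 5.36, 6.14 and 5.51 in controls and 3.78, 5.58, 3.82, 3.07 and 2.80 at 1006 ng/L. Exposed and control arrays overlapped in both.

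Of the eligible partners by suffix, 2 met the rule, and these were UF_Ppr_AF_110120 and UF_Ppr_AM_119560, the pair of members. No such partner outside the members met it, beside 1.21% of eligible probes, and nothing is read from this. The next 2 pairs, picked after their values were seen, show how partners departed from members. UF_Ppr_AM_119444 differed by -2.56 and its partner UF_Ppr_AF_112509 by -2.50 from control to 1006 ng/L, but the partner's median was higher at 287 than at 29 ng/L by 1.05. UF_Ppr_AM_120012 differed by -1.44, while its partner UF_Ppr_AF_105539 differed by 0.57. A looser match, by the number in the contig name, gave 20 eligible partners of 15 members, of which 17 were lower at 1006 ng/L with a median of -0.41 and 0 met the rule. The same limit holds for these partners, and nothing is read from their counts. Within doses, with the group means removed, the values of a member and its partner correlated across the 20 arrays at a median r of 0.40 for partners by suffix and 0.37 for those by contig number. These r describe arrays that share brightness and slide.

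Within doses the members varied together only weakly. Over the 4950 pairs of members the residuals after removal of each dose's mean correlated across the 20 arrays at a median r of 0.09, from -0.80 to 0.91, where all pairs of eligible probes had a median of -0.01. Pairs above 0.70 made up 1.45% of member pairs and 1.73% of all pairs. The main component of the within-dose variation of the other eligible probes, with 30.9% of that variance, correlated positively with 79 of the 100 members and with 57.2% of eligible probes, at medians of 0.30 and 0.11. The sign of a component is arbitrary, and here it was set so that the members' median correlation was positive. A majority of positive members was thus fixed in advance, and nothing is read from it. The part of this component in the members' choice was not tested. Most members, 75 of 100, carried FJU contig identifiers, as did 79.0% of eligible probes, and 18 carried gi numbers, as did 16.2%.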

How the data were processed

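Liver RNA of 20 fish samples was hybridised to one-colour Agilent arrays. Per the file headers, the deposited scanner output holds intensity values extracted with Feature Extraction 10.7.1.1, background-subtracted and not scaled between arrays; the well-above-background marks come from the same output. The authors' deposited table holds log2 values that the titles call loess normalized, with settings not given in the sources used here; its 1 column of no sample was not used. Each column correlated with its own array at r of at least 0.992. The rule, levels, medians, SDs and overlaps use that table. Tests used the scanner values, which correlated with it at 0.980 or more per member: log2 processed intensity, marked spots removed, cyclic loess, then lmFit and eBayes over 10867 eligible probes and all 20 arrays in R 4.3.3 with limma 3.58.1, two-sided, Benjamini-Hochberg adjusted, threshold 0.05. The planned normexp alternative used the median signal. Tests were checked on simulated data.

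Members and lists were chosen with earlier results of these data known. Named probes are the largest 3 falls, the brightest 5, those called by limma, those at the edge of the 100, and a few singled out after their values were seen. As probes have no gene names here, fewer were named than planned, and the gene lists were not tested. Alternatives changed normalization, background, filter, slide, test and single arrays. The number of arrays and, for dim probes, signal over background limit the precision.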

Additional observations from a re-analysis of the deposited data

Results flagged for a closer look

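Sets of 5 arrays were examined for a single distant value: the members' array medians and 14 named probes at each dose, 60 sets in all. In 5 of them the gap between the extreme array and its neighbour, divided by the range of the set, passed Dixon's limit, which happens by chance in about 5% of sets. For the members' median distance from the control medians, control replicate 6 was at -0.56 while the other controls were at 0 to 0.03 (ratio 0.946). These distances are measured from the control medians, which by construction holds most controls near 0, so the limit and its chance rate do not apply to that set. On the same measure 29 ng/L replicate 26 was at -1.65 while the others were at -0.59 to -0.30 (ratio 0.785). For UF_Ppr_AF_101592, control replicate 5 had 12.84 log2 units and the other controls 16.24 to 16.46 (ratio 0.939). For UF_Ppr_AF_117289, 287 ng/L replicate 35 had 15.49 and the others 12.94 to 13.37 (ratio 0.828). For UF_Ppr_AF_101144, 1006 ng/L replicate 41 had 10.34 and the others 11.52 to 11.98 (ratio 0.719).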

How the results depend on the processing

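Of 31 alternatives, all left the median fitted difference of the members at 1006 ng/L negative, a direction that the choice of members fixes. It ran from -1.61 to -0.84, the latter with normexp, beside -1.37 in the main fit. All lay within 1.02 log2 units of -1.37. That wide band is the members' median pooled SD between arrays of one dose, not a spread of this median. In all 34 the count of members called between neighbouring doses was 0. The count of members that met the rule was 64 with 75th percentile scaling, 31 with normexp, and 51 where all 20 arrays had to be well above background. It was 19 within slide 3, 12 within slide 4, 50 and 23 with steps of at least 0.3 and 0.4 (limits -0.3 and -0.4), and 42 with group means. Without 287 ng/L replicate 36 and 1006 ng/L replicate 42, an alternative chosen after seeing the data, it was 65. That alternative kept 1006 ng/L replicate 45, which had 1 dim block. Without 1 array the count was 48 to 90. It was 79 with scanner values under cyclic loess, also added later. Members called at 1006 ng/L numbered 0 with 75th percentile scaling, with slide as a fixed block and within slide 3 or slide 4, and 0 to 4 without 1 array. In the trend they numbered 3 with quantile normalization, 5 with the stricter filter, 2 with slide as a fixed block, 0 within slide 3 or slide 4, and 1 to 9 without 1 array. For these alternatives the share of all tested probes called was not counted, and nothing is read from the counts of members called. The 19 members whose 1006 ng/L scanner values lay below all controls became 68 within slide 3 and 64 within slide 4, where each dose has 2 arrays and 26.7% and 20% of eligible probes did so, and 15 in the deposited table. UF_Ppr_AF_101957 kept its side of the threshold at 1006 ng/L in 24 of 34 alternatives (adjusted p 0.00394 to 0.760) and in the trend in 32 (0.000772 to 0.818). Within slides 3 and 4, with 2 arrays per dose, its call was lost in both tests while its fitted difference was -1.67 and -1.71 and its slope -0.55 on each. No paired analysis was possible because the dose groups share no replicate numbers; slide, which holds several doses, was used as a block instead. Signal over background limits the 43 members that were only partly detected at 1006 ng/L.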
